A study of Rattus norvegicus with 8 samples.

Results

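Genes of glucocorticoid metabolism and response were examined in testes of fetal rats whose dams had received dibutyl phthalate (DBP) or its vehicle. The 8 genes were Hsd11b1, Hsd11b2, Nr3c1, Nr3c2, Sgk1, Tsc22d3, Per1 and Fkbp5, each taken through the probe sets that the platform's gene table assigns to that symbol alone. All 8 were found, with 10 probe sets, out of 14217 genes and 31042 probe sets in the series. The group was proposed and chosen by values of this same comparison, DBP against vehicle, so the differences of the 8 genes are given as a description without a test.

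The samples were Fischer 344 testes at gestational day 20. In 4 samples the dams had received 50 mg/kg of DBP, a phthalate plasticizer, mixed in corn oil, and in the other 4 corn oil alone, both at 1 ml/kg by daily gavage from gestational day 12 to 20. Testes were taken 6 h after the last dose, and RNA of each sample was hybridised to 1 Affymetrix rat expression array. The labels do not tie samples to separate litters or say how many fetuses a sample holds, so the spread between arrays may be partly technical, and the dose that reached the fetus is not given.

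Corticosterone, the main glucocorticoid of rats, is set inside cells by a pair of enzymes that work against each other. The enzyme of Hsd11b1 regenerates active corticosterone from its inactive keto form, and that of Hsd11b2 converts it back, which shields the mineralocorticoid receptor. In Leydig cells of the rat, glucocorticoids acting through their receptor are known to restrain testosterone production, and both enzymes are known from that cell type. Whether this holds for Leydig cells of the fetal testes sampled here was not measured. The hormone binds the glucocorticoid receptor (Nr3c1) or the mineralocorticoid receptor (Nr3c2), and the receptor then raises transcription of genes such as Sgk1, a kinase of sodium transport, Tsc22d3, the anti-inflammatory leucine zipper protein GILZ, Per1, a repressor of the circadian clock, and Fkbp5, a co-chaperone that lowers the receptor's affinity for hormone.

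Upstream sequence was available for 5 of the 8 genes in the RefSeq promoter table (GRCr8), in 10 windows, since some genes have several start sites. Hsd11b1, Hsd11b2 and Nr3c2 had no entry. The 250 bases before each start site were searched on both strands for the receptor half-site AGAACA, which 17.5% of all 33469 windows hold, and 0 of the 10 windows held it. None of the 10 held the E-box CACGTG (5.59% of all windows) or the cyclic AMP element TGACGTCA (1.59%). The windows of 3 target genes are shown because their mean differences had opposite signs: Fkbp5 and Sgk1 were lower on average after DBP and Per1 higher. Of these only Fkbp5 differed without overlap of the groups. Capitals mark the GC box GGGCGG (30.5% of all windows), the CCAAT box (34.0%, spelled as named) and the TATA box TATAAA (12.9%), each on either strand, and no matches overlap in the windows shown. Of the 3 windows of Sgk1, the furthest downstream is given.
Fkbp5, chr20:6543556-6543805, minus strand: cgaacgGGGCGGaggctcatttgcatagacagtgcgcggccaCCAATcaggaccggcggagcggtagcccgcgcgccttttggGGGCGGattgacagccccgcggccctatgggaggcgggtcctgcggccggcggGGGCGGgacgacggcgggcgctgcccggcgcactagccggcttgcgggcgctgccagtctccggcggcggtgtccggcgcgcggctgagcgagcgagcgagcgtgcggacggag
Sgk1, chr1:24804832-24805081, minus strand: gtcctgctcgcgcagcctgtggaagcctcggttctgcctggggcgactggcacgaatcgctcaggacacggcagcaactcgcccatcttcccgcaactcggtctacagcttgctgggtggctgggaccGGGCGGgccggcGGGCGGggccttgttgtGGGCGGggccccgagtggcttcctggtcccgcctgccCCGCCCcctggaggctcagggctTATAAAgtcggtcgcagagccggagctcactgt
Per1, chr10:54304126-54304375, plus strand: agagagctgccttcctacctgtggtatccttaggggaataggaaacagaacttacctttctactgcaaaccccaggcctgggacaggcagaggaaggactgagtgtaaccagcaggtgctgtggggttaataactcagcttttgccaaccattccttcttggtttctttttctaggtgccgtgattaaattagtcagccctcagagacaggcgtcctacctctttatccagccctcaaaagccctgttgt
The Fkbp5 window held 3 GC boxes and 1 CCAAT box with 76.0% G and C. That of Sgk1 held 4 GC boxes and 1 TATA box with 69.6% G and C, and that of Per1 held none of these with 49.2%. A match is a string of letters and not a measured binding site, and its absence from 250 bases says nothing of elements further away.

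Array medians lay between 6.08 and 6.10 on the log2 scale in the DBP group, against 6.11 to 6.13 in the vehicle group, and RNA integrity numbers between 8.6 and 8.8. On DBP replicates 3 and 4 the control transcripts spiked in before labelling were dim, with a mean log2 signal of 4.64 and 4.60. The other arrays gave 6.72 and 6.28 in DBP replicates 1 and 2, against 6.10 to 6.38 in vehicle. Each member is therefore also given for DBP replicates 1 and 2 against vehicle. Those were also the DBP arrays with the higher mean log2 signal of erythroid markers, given below. Of the testis markers, 7 of 8 Leydig cell genes and 7 of 8 measured Sertoli cell genes had a mean signal above the median of all probe sets, which was 6.10. The number of arrays limits the precision. In whole testes, fewer cells of a type and less RNA per cell cannot be told apart.

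The largest difference of a member lay in the pair of corticosterone enzymes, which differed in opposite directions. Hsd11b2, the inactivating enzyme, had log2 signals of 7.28, 7.32, 7.29 and 7.09 in DBP replicates 1 to 4, against 7.89, 7.87, 7.83 and 7.82 in vehicle. Every DBP array lay at least 0.50 below every vehicle array, while the vehicle arrays lay within 0.07 of each other. The means were 7.25 ± 0.10 after DBP and 7.85 ± 0.033 in vehicle (SD, n = 4 each), a difference of -0.61 ± 0.064 on the log2 scale (SE), or 1.52-fold lower. It was the 25th lowest difference of the 14217 genes, and 88 genes differed by more in either direction.

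Hsd11b1, the regenerating enzyme, had 5.93, 5.99, 5.95 and 6.05 in the DBP arrays, against 5.79, 5.72, 5.48 and 5.82 in the vehicle arrays. The groups did not overlap, but the nearest arrays, DBP replicate 1 and vehicle replicate 4, were only 0.11 apart. Its means were 5.98 ± 0.053 after DBP and 5.70 ± 0.15 in vehicle (SD, n = 4 each), a difference of 0.28 ± 0.079 (SE; 1.21-fold higher). This probe set lay below the median of all probe sets, where background makes up more of the signal and a log2 difference can be understated.

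Set against each other on the same array, the log2 signal of Hsd11b1 minus that of Hsd11b2 was -1.35, -1.33, -1.34 and -1.04 in DBP replicates 1 to 4. In vehicle it was -2.10, -2.15, -2.35 and -2.00. The groups did not overlap, and DBP replicate 4, with the lowest Hsd11b2 and the highest Hsd11b1 signal, stood highest. This value was 0.89 higher after DBP on the log2 scale (1.85-fold), which describes unequal change of the 2 transcripts and not their amounts, since each probe set has its own response. With DBP replicates 1 and 2 alone, the differences were -0.55 for Hsd11b2 and 0.26 for Hsd11b1, and with replicates 3 and 4 they were -0.66 and 0.30.

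**Figure D1:**
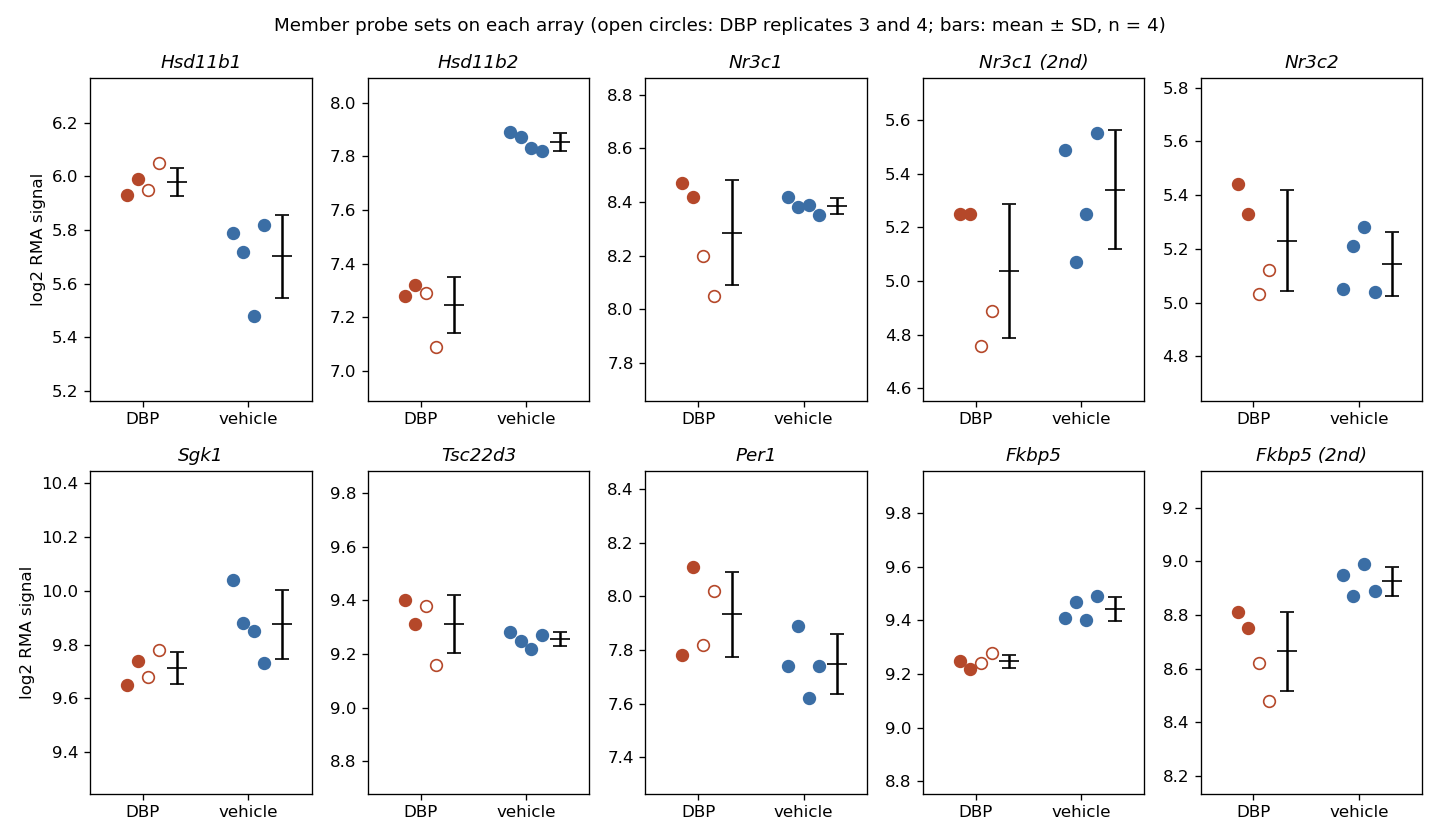
Log2 RMA signal (vertical axis, 1.2 units tall in every panel) of the 10 member probe sets on each array, DBP to the left of vehicle; open circles are DBP replicates 3 and 4, and bars give the mean ± SD of 4 arrays. The groups are apart for Hsd11b2, Hsd11b1 and both probe sets of Fkbp5 and overlap for the other 6.

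Neither receptor separated the groups. Nr3c1, the glucocorticoid receptor, had 8.47, 8.42, 8.20 and 8.05 after DBP, against 8.42, 8.38, 8.39 and 8.35 in vehicle. DBP replicates 1 and 2 lay at or above the vehicle arrays and replicates 3 and 4, those with the low spike-in signal, lay below them. The difference over all arrays was -0.10 ± 0.090 (SE), while replicates 1 and 2 gave 0.06 and replicates 3 and 4 gave -0.26. The direction at this probe set, the brighter of the 2 for Nr3c1, therefore turned with the DBP arrays used.

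The second, dimmer probe set of Nr3c1 had 5.25, 5.25, 4.76 and 4.89 after DBP, against 5.49, 5.07, 5.25 and 5.55 in vehicle. Its difference was -0.30 ± 0.14 over all arrays (SE), -0.09 with DBP replicates 1 and 2 and -0.515 with replicates 3 and 4. It too was lowest in replicates 3 and 4, but its direction did not turn. Nr3c2, the mineralocorticoid receptor, had 5.44, 5.33, 5.03 and 5.12 after DBP, against 5.05, 5.21, 5.28 and 5.04 in vehicle. The same split was seen, with DBP replicates 1 and 2 above all vehicle arrays and replicates 3 and 4 among or below them. Its difference was 0.09 ± 0.098 (SE), or 0.24 with DBP replicates 1 and 2, and -0.07 with replicates 3 and 4. The mean log2 erythroid marker signal split the same DBP arrays. Relative to the vehicle mean it stood at 0.69 and 0.59 in replicates 1 and 2 and at -0.04 and -0.07 in replicates 3 and 4. The part of the spike-in level or of the erythroid signal in these splits was not tested.

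Of the 4 receptor target genes only Fkbp5 separated the groups, and the mean differences of the 4 did not share a sign. Fkbp5 had 9.25, 9.22, 9.24 and 9.28 after DBP, against 9.41, 9.47, 9.40 and 9.49 in vehicle, at its brighter probe set. All DBP arrays lay below all vehicle arrays, and both groups were tight, with SDs of 0.025 and 0.044 (n = 4 each). The difference was -0.20 ± 0.052 (SE; 1.14-fold lower), and it was -0.21 with DBP replicates 1 and 2.

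The second Fkbp5 probe set had 8.81, 8.75, 8.62 and 8.48 after DBP, against 8.95, 8.87, 8.99 and 8.89 in vehicle. Here too the groups were apart, by 0.06 at the nearest arrays. The difference was -0.26 ± 0.077 (SE; 1.20-fold lower), -0.15 with DBP replicates 1 and 2 and -0.38 with replicates 3 and 4. The spread within the DBP group followed the spike-in split at this probe set and not at the brighter one.

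Sgk1 had 9.65, 9.74, 9.68 and 9.78 after DBP, against 10.04, 9.88, 9.85 and 9.73 in vehicle. Vehicle replicate 4 lay among the DBP arrays, so the groups overlapped, and the difference was -0.16 ± 0.072 (SE; 1.12-fold lower). Per1 had 7.78, 8.11, 7.82 and 8.02 after DBP, against 7.74, 7.89, 7.62 and 7.74 in vehicle. Vehicle replicate 2 was above DBP replicates 1 and 3, and the difference was 0.19 ± 0.088 (SE; 1.14-fold higher). Tsc22d3 had 9.40, 9.31, 9.38 and 9.16 after DBP, against 9.28, 9.25, 9.22 and 9.27 in vehicle. Here 3 DBP arrays were above all vehicle arrays and replicate 4 was below all of them, with a difference of 0.06 ± 0.065 (SE). With DBP replicates 1 and 2 alone, the differences were -0.18 for Sgk1, 0.20 for Per1 and 0.10 for Tsc22d3. With replicates 3 and 4 they were -0.145, 0.17 and 0.015 in that order.

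**Figure D2:**
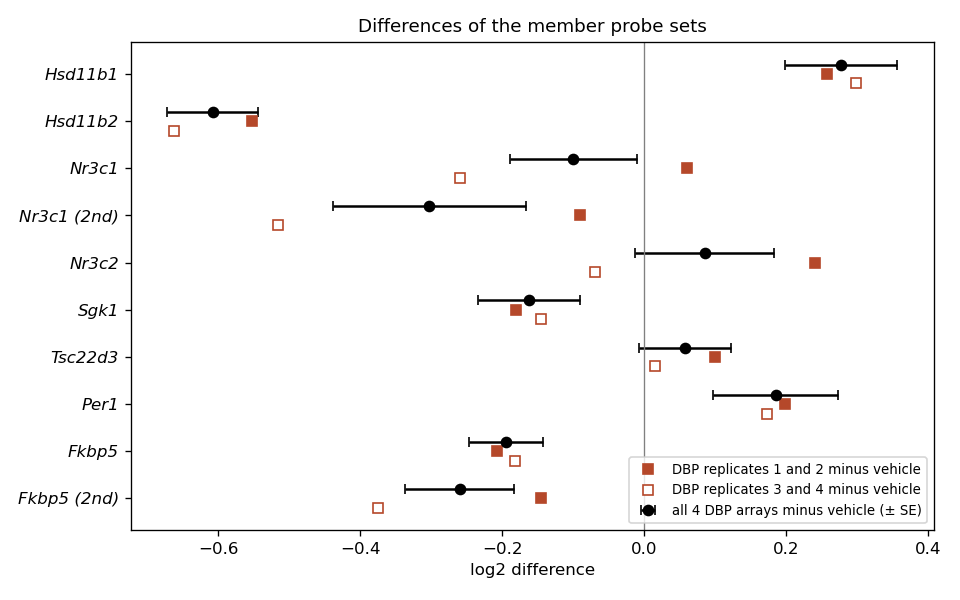
Log2 differences (horizontal axis) of the 10 member probe sets, as all 4 DBP arrays minus vehicle (circles, ± SE), DBP replicates 1 and 2 minus vehicle (filled squares) and DBP replicates 3 and 4 minus vehicle (open squares). Hsd11b2 lies at -0.61, -0.55 and -0.66 in that order, while the brighter Nr3c1 probe set lies at 0.06 and -0.26 for the 2 pairs of DBP arrays.

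Counted by gene, 4 members were higher and 4 lower on average after DBP, with a median difference of -0.02, against 0.02 over all genes. In the limma fit over all probe sets, 1 of the 10 member probe sets was called at an adjusted p under 0.05, that of Hsd11b2. Of all probe sets 1.07% were called, 0.648% as lower after DBP. Groups did not overlap at 4 of the 10 member probe sets, against 10.9% of all. With the DBP group limited to replicates 1 and 2, 1 member probe set was called, Hsd11b2 again, where 1.86% of all were called. Groups did not overlap at 6 member probe sets in that comparison, and at 23.7% of all, since fewer arrays separate more easily. Since the members were chosen with these differences known, nothing is read from these shares.

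The genes with the pattern most like that of Hsd11b2 were picked by the mean absolute difference of their 8 log2 values, each gene first centred on its vehicle mean. Closest was Stc2, the secreted glycoprotein stanniocalcin 2, whose 8 values lay on average 0.029 from those of Hsd11b2. Its signals were 6.37, 6.45, 6.57 and 6.22 after DBP, against 7.0, 7.01, 6.97 and 6.95 in vehicle. Nol4l (0.053) and Ankrd6 (0.058) came next, with differences of -0.60 and -0.55 beside the -0.61 of Hsd11b2. For Per1, the other bright member that varied most over the arrays, the closest were Ypel4 (0.034), Il1rl1 (0.044) and Il10ra (0.044). Il1rl1 and Il10ra encode subunits of interleukin receptors. All 3 lay below the median of all probe sets. In each, as in Per1, DBP replicates 2 and 4 were the highest of the 8 arrays.

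The rest of the pathway was read from 8 lists with 119 measured genes of 135. The lists were chosen with earlier results of these data known, so nothing is read from the number of calls. In the limma fit over all probe sets 2 listed genes passed at an adjusted p under 0.05, Sgk3 higher and Mrap lower, where 1.22% of all genes passed. An unadjusted p under 0.05 was seen for 25, with 12 higher and 13 lower, and for 19.1% of all genes. Their median difference was 0.01 on the log2 scale. With DBP replicates 1 and 2 against vehicle the same 2 genes passed, where 1.67% of all genes did.

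Among 20 measured genes of the SGK1 and sodium transport pathway, Sgk3 passed as higher and 0 passed as lower. Of all genes 1.22% passed in either direction. By sign alone 14 of the 20 were higher and 6 lower. Sgk3 is a close relative of Sgk1 whose kinase is held at endosomes by a lipid-binding domain. It had 9.84, 9.61, 9.51 and 9.81 after DBP, against 9.24, 9.12, 9.20 and 9.10 in vehicle, so that all DBP arrays were above all vehicle arrays. The difference was 0.53 ± 0.081 (SE; 1.44-fold higher; limma adjusted p = 0.0149). The call was lost without vehicle replicate 2, 3 or 4, each of which gave an adjusted p of 0.0588 to 0.0619. The mean difference of Sgk1, -0.16, had the opposite sign to the 0.53 of Sgk3, but the groups overlapped for Sgk1. Nedd4, a ubiquitin ligase whose relative Nedd4l is a substrate of SGK1, did not pass at -0.34 ± 0.085 (SE; adjusted p = 0.0992), with its 5 other probe sets between -0.68 and -0.14. With DBP replicates 1 and 2 against vehicle, 4 of those 5 lay between -0.03 and 0.04, so their difference rested on DBP replicates 3 and 4, the arrays with dim spike-ins. The probe set that represents Nedd4 gave -0.37 with replicates 1 and 2 and -0.30 with replicates 3 and 4, and it was called when limma's prior was given a trend and made robust. Nherf2, a scaffold that binds SGK1, did not pass at 0.26 in either of its 2 probe sets (adjusted p = 0.0964 and 0.0725). Others with an unadjusted p under 0.05, chosen after their values were seen, were Atp1b1 (0.22), Slc12a3 (0.22) and Pdpk1 (-0.15). In that order they gave 0.12, 0.09 and -0.09 with DBP replicates 1 and 2, and 0.31, 0.345 and -0.21 with replicates 3 and 4. Slc12a3 was dim, with a mean above 30.8% of all probe sets. The median of this list was 0.07.

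Corticoid synthesis was covered by 3 measured genes of 6. Mrap, an accessory protein needed for the corticotropin receptor to reach the cell surface, fell. It had 7.0, 6.99, 7.30 and 6.72 after DBP, against 7.61, 7.67, 7.66 and 7.49 in vehicle, and the groups were 0.19 apart at the nearest arrays. Its difference was -0.61 ± 0.11 (SE; limma adjusted p = 0.029), the same size as that of Hsd11b2. The call was lost without DBP replicate 1 or any 1 of the 4 vehicle arrays, with adjusted p between 0.0619 and 0.116. Cyp21a1 (0.03) and Cyp11b1 (-0.09), enzymes of the adrenal cortex, did not pass. Both lay below the median of all probe sets, and Cyp11b1 varied among the DBP arrays, at 5.87, 5.86, 5.14 and 4.87, against 5.40, 5.22, 5.62 and 5.87 in vehicle.

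Of 16 measured clock genes limma called 0, while 6 lower and 1 higher had an unadjusted p under 0.05, against 19.1% of all genes. By sign alone 13 had a lower mean after DBP and 3 a higher one, with a median difference of -0.15, and 42.7% of all genes had a lower mean. Some of the 13 were close to 0, such as Cry1 (-0.005) and the clock-controlled transcription factor gene Dbp (-0.02). Npas2, a partner of BMAL1, had 5.95, 6.18, 6.06 and 5.68 after DBP, against 6.43, 6.37, 6.4 and 6.42 in vehicle. These groups did not overlap, but the difference of -0.44 ± 0.095 (SE) missed the threshold (limma adjusted p = 0.0629). Npas2 did pass when only probe sets above the median were fitted and with means over the probe sets of a gene. It also passed without DBP replicate 2 and without DBP replicate 4. Per2, a relative of Per1, had 7.73, 7.81, 7.55 and 7.74 after DBP, against 8.02, 8.13, 8.06 and 7.83 in vehicle. Its difference was -0.30 ± 0.081 (SE; adjusted p = 0.111), although its second probe set was higher by 0.15 (adjusted p = 0.272). The other 5 with an unadjusted p under 0.05, chosen after their values were seen, were Rora (-0.38), Bhlhe40 (-0.38), Tef (-0.25) and Nr1d2 (-0.18), and on the other side Nfil3 (0.26). In that order they gave -0.54, -0.26, -0.29, -0.14 and 0.14 with DBP replicates 1 and 2. With DBP replicates 3 and 4 they gave -0.22, -0.50, -0.21, -0.22 and 0.385. Tissue was taken at a single time after the last dose, and no source used here gives the clock time of sampling.

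**Figure D3:**
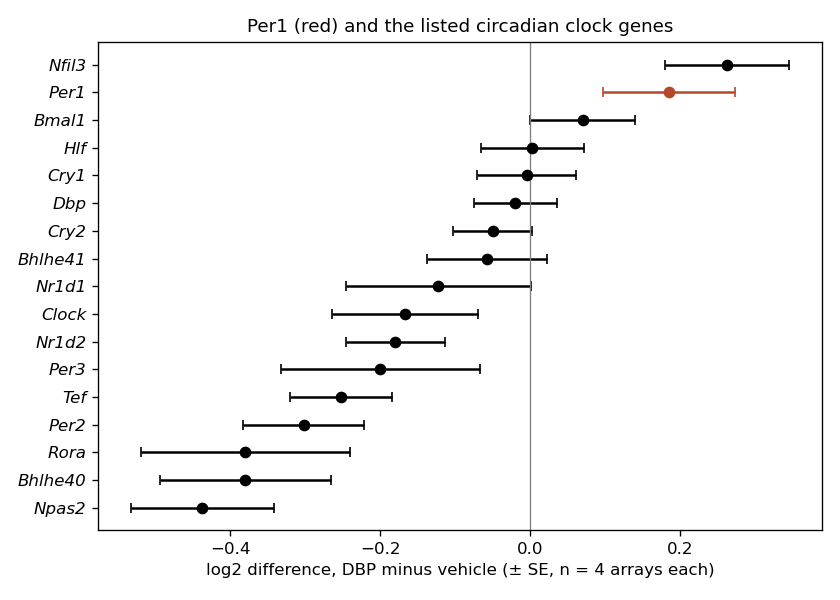
Log2 difference of DBP minus vehicle (horizontal axis, ± SE, 4 arrays per group) of Per1 (red) and the 16 measured circadian clock genes, ordered by size; the gene named Dbp is a clock-controlled transcription factor and not the chemical. Per1 lies at 0.19, second highest after Nfil3 at 0.26, and 13 of the other genes lie below 0.

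Of 32 measured genes that glucocorticoids are known to induce, 0 passed over all probe sets. At an unadjusted limma p under 0.05, 5 were higher and 1 lower, and 19.1% of all genes had such a p. The median of this list was 0.02, and the differences ran from -0.40 to 0.41. Edn1, the vasoconstrictor peptide endothelin 1, had 6.04, 6.01, 6.06 and 6.28 after DBP, against 5.53, 6.0, 5.50 and 5.71 in vehicle, and did not pass (0.41 ± 0.11, SE; adjusted p = 0.111). Sphk1, sphingosine kinase 1, gave 0.25 ± 0.066 (SE; adjusted p = 0.110) without overlap of the groups. The others with an unadjusted p under 0.05, chosen after their values were seen, were Nfkbia (0.22), Lcn2 (0.21), Cdkn1a (0.20) and Mt1 (-0.20). In that order they gave 0.155, 0.08, 0.08 and -0.265 with DBP replicates 1 and 2. With DBP replicates 3 and 4 they gave 0.28, 0.34, 0.32 and -0.14. Lcn2 was dim, with a mean above 25.1% of all probe sets.

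The receptor's own machinery showed 0 calls, where 1.22% of all genes passed, so with lists this short nothing is read from the 0. Among 12 measured chaperones and co-chaperones 0 passed and 0 had an unadjusted p under 0.05, against 19.1% of all genes. Their differences ran from -0.08 to 0.14. The largest were those of Bag1 (0.14) and Fkbp4 (0.14), the co-chaperone that competes with FKBP5 on the receptor complex. Of 15 coregulators 0 passed, and the median was -0.03. An unadjusted limma p under 0.05 was seen for 1 higher and 3 lower, and for 19.1% of all genes. Arid1a, a subunit of the SWI/SNF remodelling complex, gave -0.23 (adjusted p = 0.148) at its brightest probe set and 0.06 to -0.09 at its 3 others. Ppargc1a, a metabolic coactivator, gave 0.29 (adjusted p = 0.131) at a dim probe set, with a mean above 23.7% of all probe sets, and 0.16 and -0.05 at its 2 others, which were dimmer still. Med1 (-0.27) and Ep300 (-0.15), chosen after their values were seen, were the others with an unadjusted p under 0.05.

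Among 9 measured genes of steroid metabolism, cofactor supply and transport, 0 passed and 1 had an unadjusted p under 0.05. That was Srd5a3, a steroid reductase family member with a role in glycosylation (0.19, adjusted p = 0.228). Por, the electron donor of cytochrome P450 enzymes, gave 0.13 (adjusted p = 0.28). Of 12 relatives of Tsc22d3 and Fkbp5 0 passed and 0 had an unadjusted p under 0.05, beside the same shares of all genes. Tsc22d2 at -0.16 and Fkbp1a at 0.10 were the first by p.

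**Figure D4:**
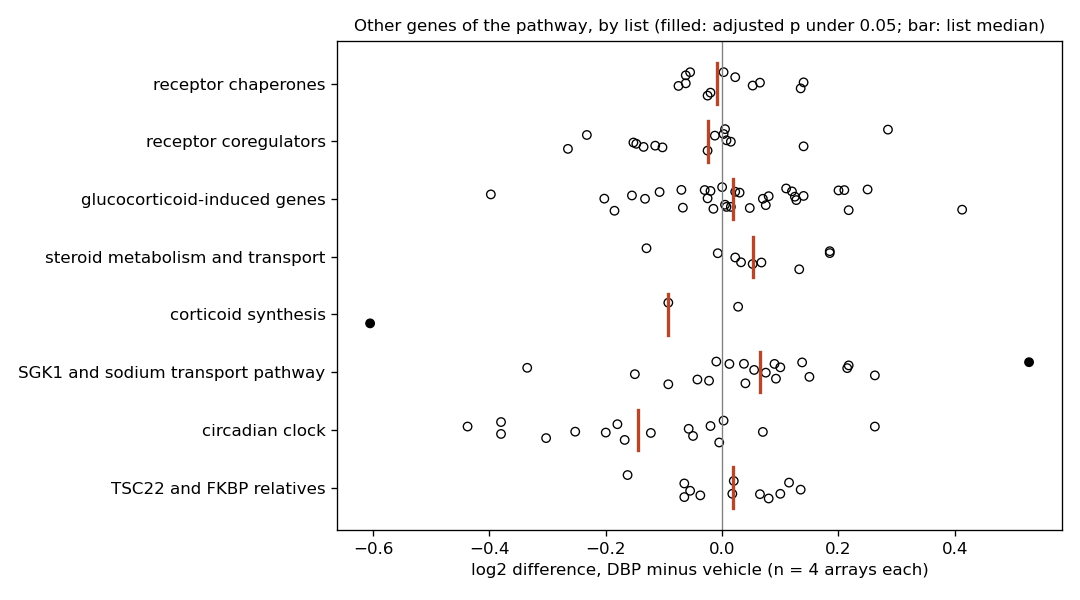
Log2 difference of DBP minus vehicle (horizontal axis, 4 arrays per group) of the 119 measured pathway genes in 8 lists, 1 circle per gene; filled circles passed at an adjusted p under 0.05 and bars mark list medians. The filled circles are Sgk3 at 0.53 and Mrap at -0.61, and the clock list has the lowest median, -0.15.

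Markers of cell types that a dissected testis could hold were read beside these results. Of the 6 measured adrenal genes 0 passed and 4 lay below the median of all probe sets. Their summed linear signal was 297 to 329 after DBP, against 293 to 316 in vehicle. Genes of opposite sign can offset each other in such a sum. An unadjusted limma p under 0.05 was seen for 2 higher and 1 lower, and for 19.1% of all genes. They were Th (0.27), Dbh (0.22) and Chga (-0.34), named after their values were seen. For the 6 measured mesonephric duct genes 0 passed and the sum was 311 to 341 after DBP, against 267 to 337 in vehicle. Pax8 (0.26, named after its values were seen) was the only duct gene with an unadjusted limma p under 0.05. The summed Leydig cell signal was 23919 to 27154 after DBP, against 25013 to 26467 in vehicle, with 0 of 8 past the threshold. That sum is set by the brightest genes, and the single markers had a median difference of -0.09. At an unadjusted limma p under 0.05, 3 were lower and 1 higher (named after their values were seen). Of all genes 19.1% had such a p. Insl3, the hormone of testis descent, had 11.31, 11.59, 11.50 and 11.66 after DBP, against 11.87, 11.79, 11.86 and 11.90 in vehicle, without overlap (-0.34 ± 0.077, SE; limma adjusted p = 0.0732). Lhcgr, the luteinizing hormone receptor, differed by -0.21 (adjusted p = 0.17) and the steroidogenic enzyme gene Hsd3b1 by 0.17 (adjusted p = 0.163). Vsnl1, a calcium sensor gene dimmer than the median of all probe sets, differed by -0.70 ± 0.17 (SE; adjusted p = 0.0888), more than Hsd11b2. All 6 macrophage markers were higher on average, 0 passed, and their sum was 810 to 909 after DBP, against 769 to 807 in vehicle. Of these, 2 had an unadjusted limma p under 0.05, Aif1 (0.26) and Cd74 (0.24), named after their values were seen. The 6 erythroid markers had a median of 0.30, and their mean log2 signal stood 0.69 and 0.59 above the vehicle mean in DBP replicates 1 and 2 and 0.04 and 0.07 below it in replicates 3 and 4. The summed erythroid signal was 19829 to 24099 after DBP, against 19366 to 21961 in vehicle. Only Hba-a3 of this list (0.28, named after its values were seen) had an unadjusted limma p under 0.05. Of the 5 endothelial markers 1 passed, Plvap (named after its values were seen; 0.36 ± 0.072, SE; limma adjusted p = 0.0471), and their sum was 1240 to 1367 after DBP, against 1236 to 1266 in vehicle. Sums for Sertoli cells (15503 to 17752 after DBP, against 15808 to 16848 in vehicle), germ cells (1061 to 1241 after DBP, against 935 to 1062 in vehicle) and stroma with myoid cells (17049 to 19284 after DBP, against 18689 to 19593 in vehicle) overlapped between the groups, and 0 of their 20 measured markers passed. These sums too are set by the brightest genes, and the germ cell sums overlapped only from 1061 to 1062. At an unadjusted limma p under 0.05, 4 Sertoli cell markers were higher and 1 lower, and 2 germ cell markers were higher. For stroma with myoid cells 1 was higher and 2 lower. The smallest p of each list belonged to Inhbb (-0.35), Sycp3 (0.31) and Postn (-0.56), named after their values were seen. In that order they gave -0.345, 0.235 and -0.255 with DBP replicates 1 and 2, and -0.355, 0.39 and -0.86 with replicates 3 and 4. The RMA scale has no zero, so no marker can be listed at 0. The part of these cell types in the members' differences was not tested.

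**Figure D5:**
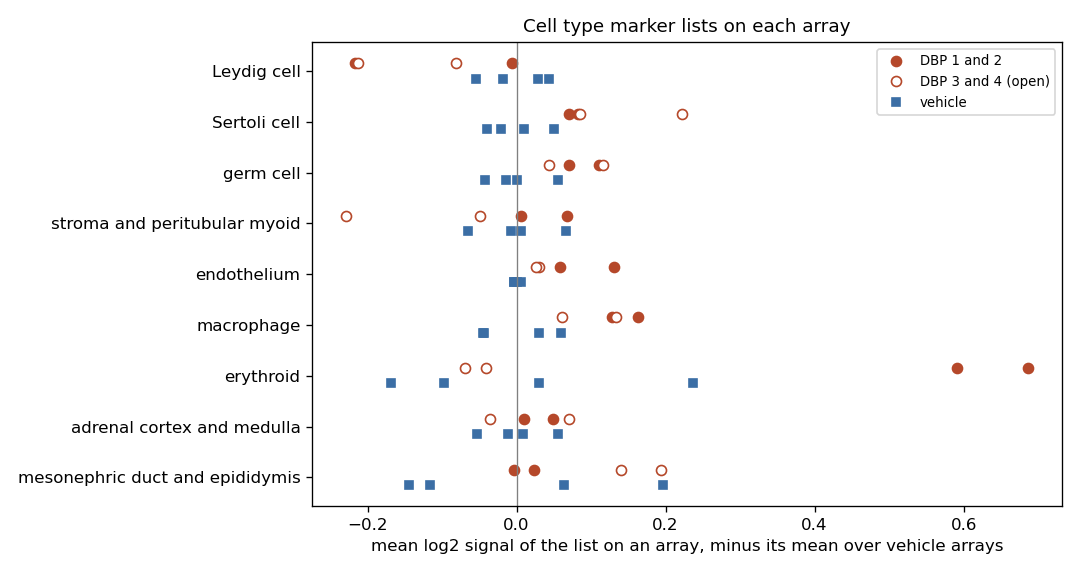
Mean log2 signal of each marker list on each array, minus that list's mean over the vehicle arrays (horizontal axis); circles are DBP arrays, open for replicates 3 and 4, and squares are vehicle arrays. The erythroid list splits the DBP arrays, with replicates 1 and 2 at 0.69 and 0.59 and replicates 3 and 4 at -0.04 and -0.07.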

How the data were processed

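RNA of 8 fetal testis samples, 4 DBP and 4 vehicle, was measured on 1 array each. The deposited values are log2 signals, 1 per probe set and array, made by the authors with RMA per the submitters' processing notes; the version and settings are not given in the sources used here. RMA commonly compresses differences of dim probe sets and gives no detection call, and the deposited array medians were close but not equal. Of 31099 probe sets 57 Affymetrix controls were left out and 31042 tested. The platform's gene table gave 20826 probe sets 1 symbol, 436 several and 9780 none, and only the first kind was named. Symbols were looked up by Entrez ID in RefSeq, and 0 changed. The probe set with the highest mean represented a gene (14217 genes).

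Groups were compared with limma 3.58.1 in R 4.3.3 (linear model, empirical Bayes, 2-sided, Benjamini-Hochberg over all tested probe sets, threshold 0.05), and the procedure was tested on simulated data. SEs are those of that fit. Poly-A spike-in level is the mean of 27 control probe sets. Promoter windows were searched and figures drawn with Python 3.11.15, pandas 2.3.3 and matplotlib 3.10.9. Of the pathway lists, genes past the threshold and the next 2 by unadjusted p were named; 3 nearest patterns were named for each of the 2 members with the largest SD above the median signal. The members, lists and alternatives were chosen with earlier results of these data known. Same-numbered arrays did not deviate together in every pair (correlations of deviations from -0.076 to 0.11), so the numbers were not taken as pairs. 0 pairs of arrays were identical. Alternatives were a signal filter, other array scalings, another prior, the replicate number as a block, means over probe sets, fewer cross-matching probe sets, and leaving out arrays.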

Additional observations from a re-analysis of the deposited data

How the results depend on the processing

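Over 15 alternatives (14 for Hsd11b1 and Nr3c2, which the signal filter removed), the difference of Hsd11b2 stayed between -0.63 and -0.55, that of Hsd11b1 between 0.20 and 0.32 and that of Fkbp5 between -0.23 and -0.17. Over these alternatives Nr3c1, read from its brighter probe set, was the only member whose sign turned, to 0.06 with DBP replicates 1 and 2 against vehicle. Nr3c2 was 0.24 in that comparison, and -0.07 with DBP replicates 3 and 4, which were not among the alternatives. With means over the probe sets of a gene Nr3c1 was -0.20. Nr3c1, Nr3c2, Tsc22d3 and Sgk1 moved by over 1.5 times when 1 array was left out, while Per1 did not (0.13 to 0.24 over all alternatives). Nr3c1, -0.10 as reported, was -0.16 and -0.022 without DBP replicates 1 and 4. Nr3c2, 0.085 as reported, was 0.015, 0.052 and 0.15 without DBP replicates 1, 2 and 3, and 0.053, 0.13 and 0.050 without vehicle replicates 1, 3 and 4. Tsc22d3, 0.058 as reported, was 0.028, 0.035 and 0.11 without DBP replicates 1, 3 and 4, and Sgk1, -0.16 as reported, was -0.11 without vehicle replicate 1. The members' median difference, -0.02 as reported, was -0.0525 with means over the probe sets of a gene, 0.08 with DBP replicates 1 and 2 against vehicle, and -0.0633 to 0.0433 when 1 array was left out. The 331 called probe sets became 175 with the replicate number as a block, 577 with DBP replicates 1 and 2 against vehicle, and 82 to 606 when 1 array was left out (606 without DBP replicate 2, 220 without DBP replicate 3, and 114, 122, 82 and 118 without vehicle replicates 1 to 4). Shifting arrays to the same median gave 158 higher and 159 lower, against 130 and 201 as deposited. The 2 pathway genes called were the same 2 with the replicate block. They became 5 with means over probe sets (Mrap, Sgk3, Ncor1, Npas2 and Tef), 4 without DBP replicate 2 (with Npas2 and Bhlhe40) and 1 without DBP replicate 1 or vehicle replicate 1. The count was 3 with the signal filter, which kept 91 of the 119 genes, and without DBP replicate 4 (each with Npas2). It was also 3 with the trend and robust prior (with Nedd4). Without vehicle replicate 2, 3 or 4 limma called 0, with 23, 18 and 21 at an unadjusted p under 0.05. The causes were not tested. Background correction could not be varied from RMA values.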
